A study of Mus musculus with 2 samples.

Results

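Clu-high adenoma cells are the epithelial cells of 2 intestinal adenoma organoid cultures that carried the largest share of RNA from Clu, the gene of the secreted chaperone clusterin. A cell was taken as a barcode above a minimum of unique molecular identifiers (UMIs, counted single RNA molecules) set for its library, with at most 20% mitochondrial UMIs and at least 5 UMIs of Epcam, the epithelial adhesion gene. Cells were then ranked within their library by Clu UMIs over total UMIs, and the Clu-high cells were chosen by this share as the top 10%. They numbered 186 of 1865 control cells and 273 of 2729 RSPO1-Fc cells, 459 of 4594 in all. The lowest 50% by the same share served as the comparison and are called Clu-low cells, of which the control library had 933 and the RSPO1-Fc library 1365.

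Both cultures came from intestinal adenomas of 17-week-old C57BL/6 mice with the genotype ApcMin/+, which carry the Min mutation in Apc, the brake on Wnt/β-catenin signalling. The control culture was grown without RSPO1-Fc. The other, called the treated culture here, had been given RSPO1-Fc, which joins R-spondin 1, a secreted enhancer of Wnt signals, to an antibody Fc part, at 10 µg/ml per the treatment protocol, while a second label of that sample gives the same number in mg/ml. Each culture gave 1 library, the labels do not say how many mice or organoid lines went into it, and no difference between cultures has a replicate check.

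Clusterin binds misfolded proteins outside the cell and inhibits the terminal step of complement. In the intestine, Clu marks a rare crypt cell that expands after injury and can rebuild the stem cell pool, a state tied to the transcriptional coactivator YAP and to genes otherwise used by the fetal gut. Homeostatic stem cells, in contrast, depend on Wnt signals and express Lgr5 and Ascl2.

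The libraries differ in more than the treatment. The control matrix lists 31053 genes and 6794880 barcodes and the RSPO1-Fc matrix 27998 and 737280. The labels name the same kit for both, so a difference in kit or processing is inferred from these sizes. Such a difference and culture cannot be told apart. Xist, which coats the inactive X chromosome, gave 10831 UMIs in control Clu-high cells and 0 in treated Clu-high cells, where the Y-linked gene Eif2s3y had 391 against 0. The posterior homeobox gene Hoxa9 had 1061 UMIs in the former and 0 in the latter, and Gata4, a factor of the proximal gut, had 0 and 296. The cells of the libraries shared 0 barcodes. Results below therefore come from comparisons of Clu-high with Clu-low cells inside a library, and levels in the libraries are set side by side only.

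Clu itself, at 65968483 to 65981547 on the plus strand of chromosome 14 (GRCm38), was used to choose the cells, so its values describe the choice. Control Clu-high cells held 16 to 437 Clu UMIs with a median of 61.5, and treated Clu-high cells 19 to 327 with a median of 88. As CPM of the single cell (a gene's UMIs over all UMIs, scaled to a total of 1000000), the medians were 1866 and 4095, and the last cell inside the limit stood at 1292 and 2503 against 1290 and 2501 for the first cell outside it. Among Clu-low cells, 312 of 933 in the control library but 17 of 1365 in the treated library had no Clu UMI. Summed over cells, Clu was 2309 CPM in Clu-high and 73.3 CPM in Clu-low control cells, and 4736 and 259 CPM in the treated library. Droplets with over 100 and up to 500 UMIs, which hold mostly free RNA, had 262 CPM of Clu in the control and 1296 CPM in the treated library. An estimated upper bound of 1.15% and 19.0% free RNA per cell would put 3.01 and 246 CPM of Clu into every cell. It was chosen after a first estimate had taken Clu of treated Clu-low cells below 0. That it stays under their level therefore carries no weight. In the treated library this bound covers most of the Clu in Clu-low cells, and a small part of that in Clu-high cells.

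**Figure D1:**
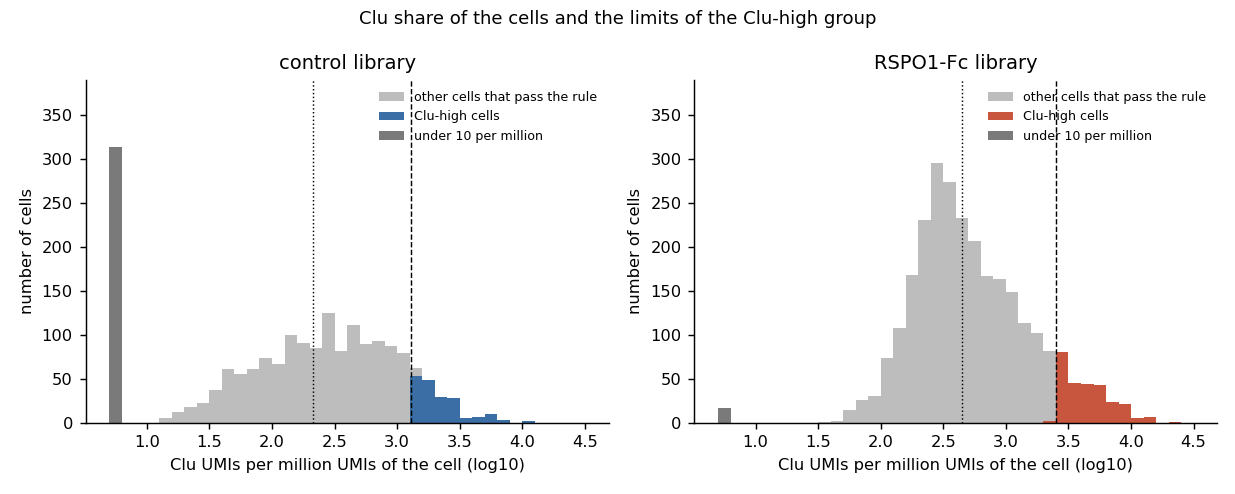
Number of cells by the Clu CPM of the cell (log10 scale) in each library. Coloured bars are the Clu-high cells, the dashed line is the lowest share among them, the dotted line is the median of the library and the dark bar on the left holds cells under 10 CPM. The control library has 312 cells without Clu, and both libraries have a single continuous range with no gap at the limit.

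Depth did not separate the groups in 1 direction. Median UMIs per cell were 27868 in Clu-high and 26170 in Clu-low control cells, and 20191 and 23512 in the treated library. Mitochondrial shares were 6.17% and 6.24%, and 3.62% and 3.39%. Transcripts of ribosomal proteins took a smaller share in Clu-high cells, with medians of 17.1% against 22.2% in the control and 19.1% against 30.1% in the treated library. Scaling by the trimmed mean of M values shifted the log2 ratios by 0.04 in the control and 0.13 in the treated library. Doublets were scored but kept, and 4 of 186 and 2 of 273 Clu-high cells were among the cells marked as such. Intervals in brackets are 95% intervals that cover counting error alone, not variation between cells or cultures.

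Clu-high cells of both cultures shared a large set of genes. Most of the tested genes of the fetal and regenerative, squamous, TGF-β target and MHC class I lists were higher in both, and most of those of S phase and of G2 and M phase were lower. With at least 20 CPM in either group and a 1.5-fold difference as the limit, 709 of 6791 tested genes were higher (10.4%) and 444 lower (6.54%) in control Clu-high cells. In the treated library 1275 of 6214 were higher (20.5%) and 660 lower (10.6%), which became 977 and 932 with the trimmed mean scaling. A gene well under 20 CPM in 1 group was tested only through the other group, so its call was close to fixed. This holds for members of the lists below and for the shares over all genes. Of 5579 genes tested in both, 403 were higher in both (7.22%) and 223 lower in both (4%). The 403 were 79.0% of the genes higher in the control and 37.4% of those higher in the treated library, and the 223 were 67.8% and 44.2% of the lower ones. Across these genes the log2 ratios of the 2 libraries had a Pearson r of 0.70 and a Spearman rho of 0.73, as a description over genes, which are not replicates. The median log2 ratio over all genes at 10 CPM or more was 0.01 in the control (8548 genes) and 0.07 in the treated library (7789 genes).

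**Figure D2:**
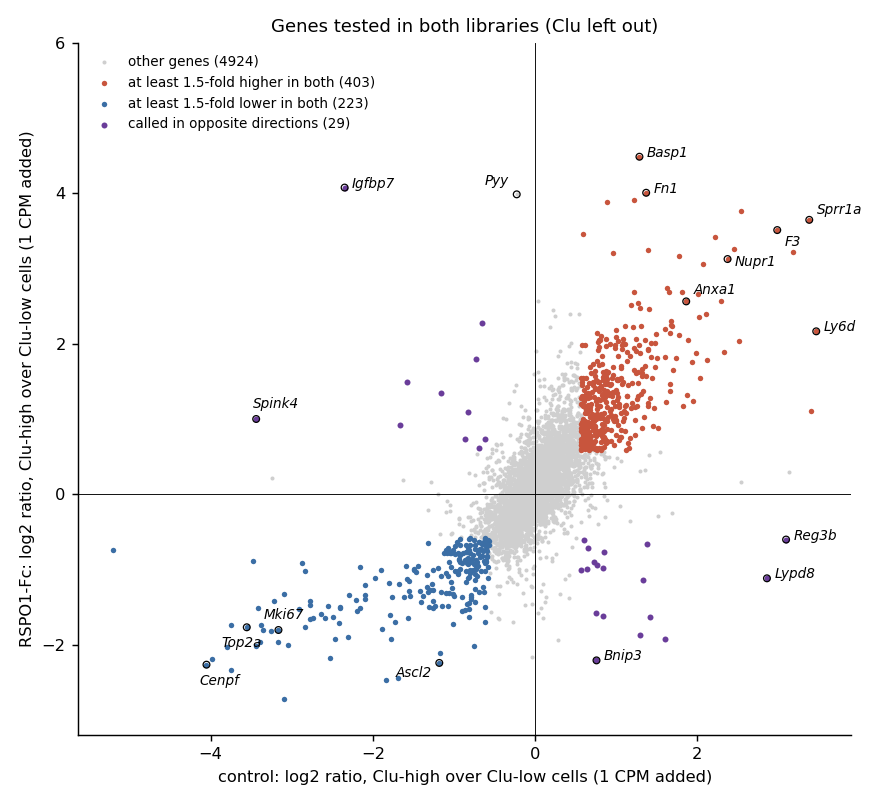
Log2 ratio of Clu-high over Clu-low cells in the control (x axis) and the treated library (y axis), with 1 CPM added, for the 5579 genes tested in both. Red points are the 403 genes at least 1.5-fold higher in both, blue points the 223 lower in both, and violet points the 29 called in opposite directions.

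The genes that led in both libraries are given next. F3, tissue factor, which starts blood clotting, was at 162 CPM in Clu-high and 19.5 CPM in Clu-low control cells (8.29-fold, 7.5 to 9.18). Treated cells held 221 and 18.5 CPM (11.9-fold, 10.9 to 13.1). Clu-low cells of both libraries thus held little of it. Nupr1, a small nuclear protein induced by cell stress, had 629 against 120 CPM in the control (5.23-fold, 5 to 5.46) and 483 against 54.6 CPM in the treated library (8.86-fold, 8.35 to 9.39). Anxa8, an annexin, had 85.7 and 19.5 CPM in the control and 114 and 12.8 CPM in the treated library. Lama3, a chain of the laminin that anchors epithelium to its basement membrane, had 72.7 and 12.4, and 69.9 and 6.4 CPM. Adam8, a cell surface metalloprotease, had 48.2 and 9.02, and 43.1 and 6.43 CPM, and the caveola protein gene Cavin3 34.3 and 5.05, and 141 and 9.43 CPM. Ly6d, a GPI-anchored surface protein of stratified epithelia, had 493 and 43.6 CPM in the control, 11.3-fold apart (10.6 to 12.1), and 151 and 32.9 CPM in the treated library, 4.58-fold apart (4.19 to 5.01). The serine protease gene Prss22 was 13.8-fold (10.1 to 19.3) and 12.2-fold (9.58 to 15.6) higher, but 5 of the 186 control cells held 74.0% of its 150 UMIs. AW112010, an interferon-responsive transcript, had 110 and 22.8, and 77.6 and 6.34 CPM.

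Shares of cells gave the same order. With every cell thinned to 5000 UMIs, F3 was seen in 33.9% of Clu-high and 6.75% of Clu-low control cells, and in 44.3% and 9.16% of the treated cells. The 195 control barcodes with macrophage markers and under 5 Epcam UMIs, which had a median of 14630 UMIs before thinning, showed F3 in 2.05%. Without thinning the shares were 64.0% and 19.7%, and 68.1% and 28.8%. Nupr1 was seen in 62.4% and 23.7% of thinned control cells against 14.4% of the macrophage-marker barcodes, and in 59.3% and 20.8% of treated cells. The treated library had 0 macrophage-marker barcodes, so no such background could be read there.

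Promoters are shown for 3 of the genes that moved together, taken from the top of this group by the smaller of the 2 log2 ratios, to place the genes beside the AP-1 motif of immediate early factors (Prss22, Cavin3 and Lama3 are not shown). Each runs from 250 bases before to 50 after the start of the gene in RefSeq (GRCm38.p6), 5′ to 3′ on the strand of the gene, with matches to 3 motifs in capitals. The motifs were TGANTCA for AP-1, GGAATG for the TEAD partners of YAP and GAANNTTC for heat shock factors, searched on both strands. Sprr1a lies on the minus strand at chr3:92485832-92486131, F3 on the plus strand at chr3:121723287-121723586 and Nupr1 on the minus strand at chr7:126625421-126625720.

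Sprr1a: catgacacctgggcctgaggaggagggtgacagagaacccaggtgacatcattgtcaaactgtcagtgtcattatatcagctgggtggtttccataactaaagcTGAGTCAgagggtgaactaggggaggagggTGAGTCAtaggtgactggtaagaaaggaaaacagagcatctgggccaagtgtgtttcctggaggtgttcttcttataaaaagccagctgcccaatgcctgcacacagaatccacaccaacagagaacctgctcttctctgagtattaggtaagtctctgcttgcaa

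F3: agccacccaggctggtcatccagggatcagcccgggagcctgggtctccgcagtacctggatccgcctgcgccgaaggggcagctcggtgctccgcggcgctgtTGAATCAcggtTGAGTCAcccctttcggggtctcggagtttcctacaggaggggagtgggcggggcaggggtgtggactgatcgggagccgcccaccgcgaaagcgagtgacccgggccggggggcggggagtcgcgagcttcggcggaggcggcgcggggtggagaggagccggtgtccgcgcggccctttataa

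Nupr1: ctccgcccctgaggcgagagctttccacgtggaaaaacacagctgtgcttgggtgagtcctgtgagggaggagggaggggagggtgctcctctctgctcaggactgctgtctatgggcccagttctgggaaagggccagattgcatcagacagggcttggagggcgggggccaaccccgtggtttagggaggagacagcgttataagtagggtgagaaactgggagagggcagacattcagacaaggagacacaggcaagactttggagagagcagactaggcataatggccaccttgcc

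Sprr1a and F3 each held 2 matches to TGANTCA and 0 to the other motifs, and Nupr1 held 0 to all 3. A TGANTCA match was present in 7.81% of 32851 promoters of this length. The other shares count genes with a match in any of their promoters, so they are on another unit. They were 5.75% of the 4456 genes with a promoter among those tested in both libraries, 13.6% of the 308 among those higher in both and 5.03% of the 179 among those lower in both. GGAATG was present in 14.7%, 13.7%, 16.2% and 15.6%, and GAANNTTC in 7.86%, 6.62%, 5.19% and 11.2%. A match describes the letters only.

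Genes of the fetal and regenerative epithelium were higher in Clu-high cells of both cultures. Of 18 listed genes, 14 were tested in the control and 13 were called higher and 0 lower (10.4% and 6.54% of all genes). In the treated library 12 of 13 tested were higher and 1, Reg3b, lower (20.5% and 10.6% of all genes). Sprr1a, Reg3b, Il33 and Areg in the control were tested through the Clu-high group alone. So were Anxa10 and Basp1 in the treated library. The log2 ratios of the list had medians of 1.63 and 1.89. These stayed between 0.86 and 1.86 in the control and between 0.99 and 2.59 in the treated library over 12 alternative settings. Anxa1, an annexin that damps inflammation, had 409 CPM in Clu-high and 112 CPM in Clu-low control cells (3.67-fold, 3.49 to 3.86). It had 908 and 153 CPM in the treated library (5.93-fold, 5.71 to 6.17), and was then seen in 89.7% of the thinned Clu-high cells. Ly6a, the Sca-1 surface antigen of repairing epithelium, had 325 and 63.8 CPM in the control, where 5 cells held 51.6% of its UMIs, and 165 and 43.9 CPM in the treated library. Areg, a ligand of the EGF receptor, had 107 and 17.7, and 424 and 102 CPM.

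Some fetal genes were largely a matter of 1 library. Msln, mesothelin, was at 521 CPM in treated Clu-high cells and at 116 CPM in Clu-low cells (4.49-fold, 4.28 to 4.7), but at 9.23 and 3.29 CPM in the control. Anxa10, an annexin of gastric epithelium, had 48.6 and 2.69 CPM in the treated library and 7 and 0 UMIs in the control groups. Basp1, a membrane protein first known from growing axons, was high in both groups of the control, 443 and 181 CPM (2.45-fold, 2.34 to 2.56). The treated library had 214 and 8.63 CPM (24.9-fold, 21.9 to 28.3). In thinned cells of that library it was seen in 55.3% of Clu-high and 4.32% of Clu-low cells. Spp1 and Il33 were higher in control Clu-high cells, at 41.9 and 25.7 CPM and at 53.3 and 17.1 CPM. Neither reached 20 CPM in the treated library.

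Squamous and barrier genes followed. Of 15 squamous and cornified genes, 4 of 5 tested were higher in the control and 4 of 6 in the treated library, where 1, Krt4, was lower, with medians of 1.77 and 1.88. Krt14 in both libraries and Sprr1a in the control were tested through the Clu-high group alone. The shares over all genes were 10.4% higher and 6.54% lower in the control, and 20.5% and 10.6% in the treated library. Sprr1a, a precursor of the cornified envelope of skin, had 48.5 CPM in Clu-high and 3.74 CPM in Clu-low control cells (13-fold, 10.4 to 16.2), 72.9% of it in 5 cells. The treated values were 381 and 29.5 CPM (12.9-fold, 12 to 13.9), and 52.4% of the thinned Clu-high cells held it against 10.0% of the Clu-low cells. Sprr2a3, of a family of near-identical genes and for that reason uncertain, had 130 and 47.4, and 927 and 230 CPM. Krt7, a keratin of ductal and fetal epithelia, had 2154 and 584 CPM in the treated library and 593 and 404 CPM in the control, below the 1.5-fold limit. Krt14, a basal keratin of skin, had 47.1 and 10.1, and 24.6 and 3.86 CPM, with 82.4% of the control UMIs in 5 cells. Of 15 claudin and tight junction genes, 5 of 10 tested were higher and 0 lower in the control, and 5 of 11 higher and 2 lower in the treated library. Cldn4, a barrier-forming claudin, had 889 and 435, and 2239 and 974 CPM. F11r, the junctional adhesion molecule A, had 237 and 129, and 422 and 180 CPM. The 2 lower genes were Cldn2 and Cldn15, both of which form cation pores, with Cldn15 at 2.44 and 20.9 CPM.

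Most of the YAP target genes tested were higher in both libraries. Of 22 listed, 6 of 8 tested were higher in the control (10.4% of all genes) and 10 of 13 in the treated library (20.5% of all genes), and 0 were lower in either. F3 in both libraries was tested through the Clu-high group alone, as were Ctgf and Ankrd1 in the treated library. The medians, over 12 and 14 members at 10 CPM or more over all cells, were 0.39 and 1.03. They stayed between 0.16 and 0.48 in the control and between 0.70 and 1.28 in the treated library over 12 alternative settings. The lowest values were those against the middle cells. Myof, a membrane repair protein, had 80.1 and 28.0 CPM in the control (2.86-fold, 2.56 to 3.19) and 105 and 25.3 CPM in the treated library (4.13-fold, 3.72 to 4.59). Cyr61, a matrix-bound growth factor, had 211 and 131, and 341 and 215 CPM, close to the limit in both. Ctgf, its relative, reached 31.7 CPM in treated Clu-high cells against 2.09 CPM (15.2-fold, 11.5 to 20.2). In the control it had 49 UMIs in Clu-high cells, 89.8% of them in 5 cells. Ankrd1, a nuclear ankyrin repeat protein, had 50.2 and 5 CPM in the treated library and 3.6 and 0.639 CPM in the control. F3, described above, also belongs to this list.

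Most TGF-β targets tested were higher in both libraries, and BMP targets were lower in the treated library. Of 12 TGF-β targets, 6 of 10 tested were higher and 1 lower in the control, and 8 of 9 higher and 0 lower in the treated library, with medians of 0.78 and 1.35. Tgfb1 in both libraries and Col4a1 in the treated library were tested through the Clu-high group alone. Over all genes 10.4% were higher and 6.54% lower in the control, and 20.5% and 10.6% in the treated library. Thbs1, thrombospondin 1, which releases TGF-β from its latent form, had 501 and 216 CPM in the control and 120 and 25.1 CPM in the treated library. Tgfb1, the ligand, had 28.9 and 16.5, and 28.2 and 6.2 CPM, while 86.2% of the thinned macrophage-marker barcodes carried it. Pmepa1, which limits TGF-β receptor signalling, had 320 and 164, and 311 and 121 CPM. Fn1, the matrix protein fibronectin, had 536 and 206 CPM in the control (2.6-fold, 2.49 to 2.71). It had 703 and 42.9 CPM in the treated library (16.4-fold, 15.5 to 17.4), where 72.9% of thinned Clu-high and 17.4% of Clu-low cells held it. Of 9 BMP targets, 1 of 5 tested was lower in the control and 4 of 4 in the treated library, and 0 were higher. Id2, an inhibitor of helix-loop-helix factors, had 169 and 293 CPM in the control and 69.4 and 180 CPM in the treated library. Id3 had 608 and 697, and 140 and 279 CPM.

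Proliferation genes were lower in Clu-high cells of both cultures. Of 52 G2 and M phase genes, 29 of 35 tested were lower in the control and 38 of 42 in the treated library, and 0 were higher, with medians of −2.36 and −1.60. Of 42 S phase genes, 24 of 27 and 27 of 31 were lower and 0 higher, with medians of −1.23 and −1.09. The shares of all genes that were lower were 6.54% and 10.6%. Many members were tested through the Clu-low group alone, so their calls were close to fixed. In the control these included Mki67, Top2a, Cenpf, Hmmr, Kif11, Cdca3, Cenpa and Clspn. Mki67, the Ki-67 antigen of cycling cells, had 12.8 CPM in Clu-high and 123 CPM in Clu-low control cells (9.58-fold lower, 7.7 to 12.1). Treated cells had 29.1 and 104 CPM (3.59-fold lower, 3.07 to 4.21). Of the 82 control UMIs, 67.1% lay in 5 cells. Top2a, the topoisomerase of mitotic chromosomes, had 15.0 and 187, and 60.3 and 208 CPM. Cenpf, a kinetochore protein, had 3.75 and 77.9, and 18.5 and 92.8 CPM, and Pclaf, a partner of the replication clamp, 12.4 and 119, and 55.8 and 222 CPM. After thinning, Mki67 was seen in 3.23% of Clu-high and 18.4% of Clu-low control cells and in 12.1% and 31.4% of treated cells. The macrophage-marker barcodes of the control carried it at 17.4%.

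The Cdk inhibitor genes Cdkn2a and Cdkn2b were higher in both libraries. Cdkn2a, the locus of p16 and Arf, had 131 and 48.8 CPM in the control (2.69-fold, 2.47 to 2.93) and 95.6 and 16.6 CPM in the treated library (5.77-fold, 5.12 to 6.49). Cdkn2b, its neighbour that encodes p15, had 66.8 and 20.5, and 157 and 23.5 CPM (3.26-fold and 6.69-fold). Cdkn1a, the p53 target p21, had 402 and 293 CPM in the control, below the limit, and 376 and 211 CPM in the treated library (1.78-fold, 1.69 to 1.87). Of 20 p53 targets and Cdk inhibitors, 4 of 16 tested were higher in the control and 9 of 16 in the treated library, and 0 were lower. Over all genes 10.4% and 20.5% were higher, and 6.54% and 10.6% lower.

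Wnt targets and stem cell genes differed in part between the libraries. Of 20 Wnt targets, 3 of 19 tested were higher and 1 lower in control Clu-high cells, and 3 of 14 higher and 7 lower in treated Clu-high cells, with medians of −0.10 and −0.37. Over all genes 10.4% were higher and 6.54% lower in the control and 20.5% and 10.6% in the treated library. Of these counts the 7 lower ones alone stood well away from the shares over all genes. At least Ascl2, lower in both libraries, was tested through the Clu-low group alone, so its calls were close to fixed. Axin2, the feedback scaffold of β-catenin destruction, was at 331 and 338 CPM in the control, a difference within counting error (0.978-fold, 0.933 to 1.03). Treated cells had 51.1 and 122 CPM (2.39-fold lower, 2.12 to 2.7). Lgr5, the R-spondin receptor of crypt stem cells, was at 107 and 61.6 CPM in the control (1.73-fold, 1.59 to 1.89), and its log2 ratio fell from 0.79 to 0.026 when the cells between the groups served as the comparison. Treated cells had 5.23 and 17.1 CPM (3.27-fold lower, 2.26 to 4.88). Ascl2, a stem cell transcription factor, was lower in both, at 13.6 and 32.1 CPM (2.36-fold, 1.89 to 2.97) and at 8.72 and 45.1 CPM (5.17-fold, 3.9 to 6.99). Cd44, an adhesion receptor and Wnt target, was higher in both, at 126 and 72.0 CPM and at 227 and 53.8 CPM. Olfm4, also a stem cell marker, which overlaps another gene model and is for that reason uncertain, was at 0 UMIs in Clu-high cells of either library and 3 and 0 in the Clu-low cells. Of 11 stem cell genes, 1 of 8 tested was higher and 2 lower in the control, and 0 of 6 higher and 5 lower in the treated library. The lower ones included Ascl2 in both libraries and Cdca7 in the control, tested through the Clu-low group alone.

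The levels moved over the whole range of Clu share for some genes and at its end for others. The cells of a library were cut into 10 bins of rising Clu share, of which bin 10 is the Clu-high group. In the control, F3 went from 5.07 CPM in bin 1, the 312 cells without Clu, to 107 CPM in bin 9 and 162 CPM in bin 10. Fn1 in the treated library stood at 35.1 CPM in bin 1, 63.6 CPM in bin 6, 314 CPM in bin 9 and 703 CPM in bin 10. Mki67 in the control was at 55.5 CPM in bin 9 and 12.8 CPM in bin 10. Lgr5 in the treated library went from 24.0 CPM in bin 1 to 5.23 CPM in bin 10, while in the control it went from 42.3 CPM in bin 1 to 121 CPM in bin 9 and 107 CPM in bin 10.

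**Figure D3:**
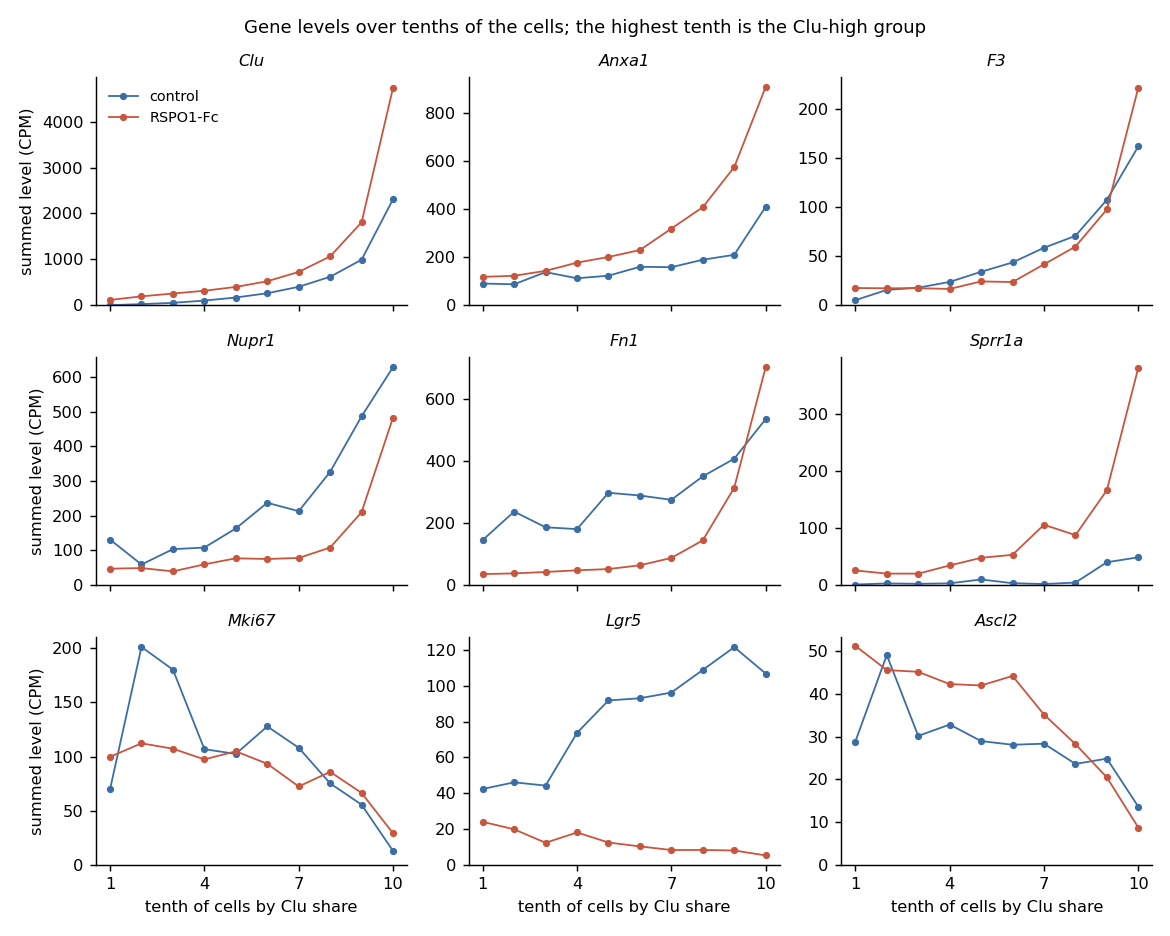
Summed level (CPM) of 9 genes over 10 bins of the cells by Clu share, in the control (blue) and the treated library (red). Bin 10 is the Clu-high group, and bin 1 of the control holds the 312 cells without Clu. Clu rises by construction, F3, Nupr1 and Anxa1 rise in both libraries, Mki67 and Ascl2 are lowest in bin 10 of both, and Lgr5 is higher in bin 10 than in bin 1 in the control and lower in the treated library.

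Calls of mucosal defence genes went in opposite directions in the 2 cultures. Of 15 listed, 10 of 12 tested were higher in control Clu-high cells and 0 lower, with a median of 1.86. Treated cells showed 0 of 4 tested higher and 4 lower, with a median of −1.49. Over all genes 10.4% were higher in the control and 10.6% lower in the treated library. Pigr, Reg3g and Lypd8 in the treated library were tested through the Clu-low group alone. At least Reg3b in the control was tested through the Clu-high group alone, with most of its UMIs there in 5 cells. The calls of Reg3b in the control and of Pigr and Reg3g in the treated library were thus close to fixed. Lcn2, lipocalin 2, which starves bacteria of iron, had 2005 CPM in Clu-high and 196 CPM in Clu-low control cells, and 0.174 and 0.286 CPM in the treated library. Pigr, the receptor that carries IgA across the epithelium, had 150 and 48.7 CPM in the control and 11.2 and 45.2 CPM in the treated library. Reg3g, an antibacterial lectin, had 87.4 and 34.9, and 14.1 and 54.2 CPM. Lypd8, which keeps bacteria off the colon surface, had 482 and 65.4 CPM in the control, 69.0% of it in 5 cells, and 18.8 and 42.1 CPM in the treated library. Without the cells highest in a gene, 5 Clu-high and 25 Clu-low cells, the log2 ratio of Lypd8 in the control was 3.05. Whether a difference in kit or processing, sex or gut segment between the libraries bears on this was not tested.

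Most MHC class I genes tested were higher in both libraries, and most NF-κB targets tested in the control. Of 12 MHC class I genes, 6 of 7 tested were higher in the control and 5 of 6 in the treated library, and 0 were lower, with medians of 0.79 and 0.71. For this and the lists that follow, 10.4% of all genes were higher in the control and 20.5% in the treated library. The shares lower were 6.54% and 10.6%. B2m, the light chain, had 166 and 105, and 299 and 131 CPM, and H2-K1 and H2-D1, near-identical heavy chain genes and for that reason uncertain, were 1.5-fold or more higher in both. Of 14 NF-κB targets, 9 of 12 tested were higher in the control and 5 of 10 in the treated library, where 2, Ccl20 and Sod2, were lower. Cxcl16, a membrane-bound chemokine, had 55.8 and 16.8 CPM in the control (3.33-fold, 2.91 to 3.82) and 348 and 69.7 CPM in the treated library (4.99-fold, 4.7 to 5.3). Of 20 interferon response genes, 4 of 6 tested were higher in the control and 0 of 3 in the treated library. Of 11 complement genes, 3 of 4 tested were higher in the control and 2 of 3 in the treated library. C3 in the control and Cd55 in both libraries had under 20 CPM in Clu-low cells. They were tested through the Clu-high group alone, so their calls were close to fixed. Cd55, which dissolves complement convertases on the cell surface, had 27.4 and 13.3, and 33.1 and 7.66 CPM. Of 7 MHC class II genes, 1 of 1 tested, Cd74, was higher in the control at 121 and 56.0 CPM and 0 of 0 in the treated library, and the control median of the list, −0.72, turned to 0.40 against the middle cells. Of 5 clusterin receptor genes, 0 of 1 tested was called in either library. C3, the central complement component, had 38.0 and 3.96 CPM in the control (9.59-fold, 7.69 to 12.0) and 0 and 4 UMIs in the treated library. The chemokine gene Ccl5 had the largest log2 ratio of the treated library, with 606 and 117 UMIs, of which 5 cells held 97.4%. Ccl2 had 48.8 and 1.8 CPM there, 47.1% of it in 5 cells.

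Lysosome genes were mostly higher in the treated library, and stress lists gave few calls in the control. Of 11 lysosome genes, 3 of 10 tested were higher in the control and 8 of 10 in the treated library, and 0 were lower, beside 10.4% and 20.5% of all genes higher. Ctsl, a cathepsin protease, had 476 and 180, and 542 and 240 CPM, and Grn, progranulin, 342 and 136, and 126 and 67.8 CPM. Hspd1, the mitochondrial chaperonin, was lower in both, at 280 and 500 CPM and at 284 and 535 CPM. Hspb1, a small heat shock protein, had 395 and 292 CPM in the control and 204 and 37.9 CPM in the treated library (5.39-fold, 4.97 to 5.83). Of 15 heat shock genes, 0 of 13 tested were higher and 3 lower in the control, and 3 of 14 higher and 2 lower in the treated library, where 20.5% and 10.6% of all genes were called so. Of 17 genes of the unfolded protein and integrated stress response, 0 of 14 were higher and 1 lower in the control, and 4 of 14 higher in the treated library. Of 16 AP-1 and immediate early genes, 4 of 15 tested were higher in the control and 7 of 16 in the treated library, 0 lower. The AP-1 subunit gene Fosl2 had 196 and 89.6 CPM in the control and 192 and 128 CPM in the treated library. The phosphatase gene Dusp1 had 229 and 114, and 193 and 44.4 CPM. Of 12 ERK feedback genes, 0 of 8 were called in the control, and 3 of 6 were higher and 1 lower in the treated library. Of 12 Notch genes, 1 of 2 tested was lower in the control and 2 of 3 higher in the treated library.

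Glycolysis and hypoxia genes gave calls mostly in opposite directions in the libraries, and cholesterol synthesis genes gave calls in 1 direction. Of 20 glycolysis and hypoxia genes, 5 of 16 tested were higher and 0 lower in the control, but 1 of 18 higher and 9 lower in the treated library, with medians of 0.14 and −0.52. Over all genes 10.4% were higher and 6.54% lower in the control, and 20.5% and 10.6% in the treated library. Bnip3, a hypoxia-induced mitophagy receptor, had 67.3 and 39.3 CPM in the control (1.71-fold, 1.53 to 1.91) and 19.7 and 94.9 CPM in the treated library (4.82-fold lower, 3.99 to 5.86). Ldha, which makes lactate, had 456 and 505 CPM in the control and 508 and 1266 CPM in the treated library. Slc2a1, the glucose transporter, was higher in both, at 67.9 and 29.7 CPM and at 73.2 and 47.6 CPM. Of 20 cholesterol synthesis genes, 7 of 19 tested were lower in the control and 6 of 20 in the treated library, and 0 were higher. Idi1, an isomerase of the pathway, had 61.2 and 106, and 73.4 and 139 CPM.

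**Figure D4:**
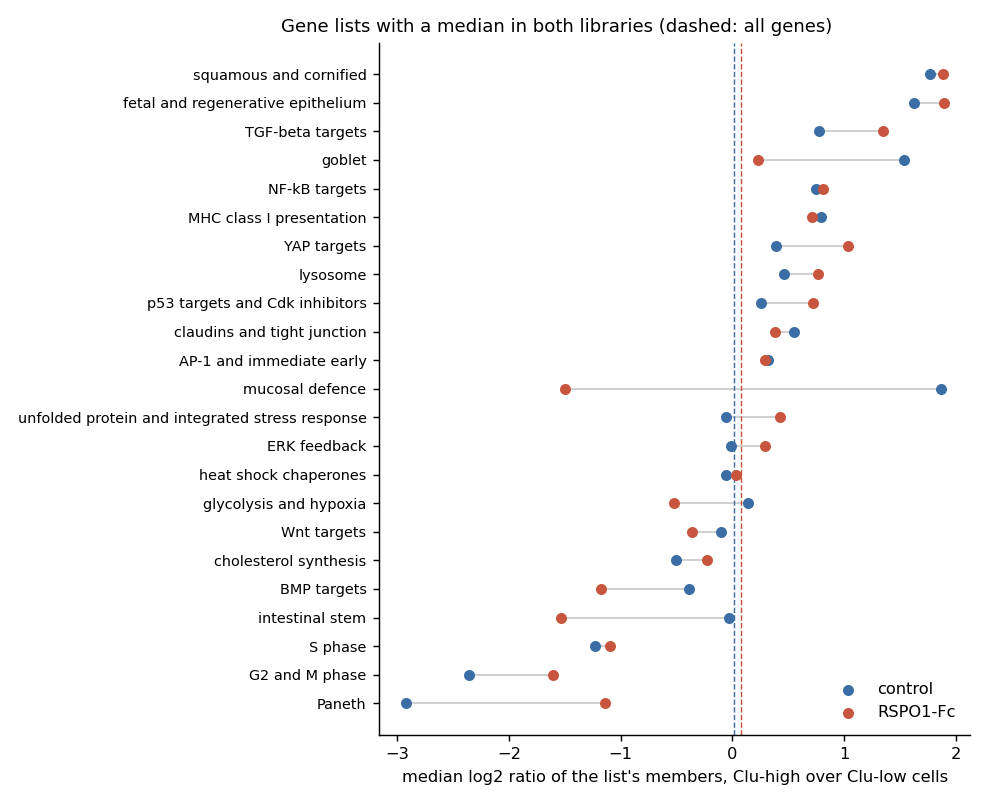
Median log2 ratio of Clu-high over Clu-low cells for each gene list with at least 4 measured members in both libraries, control in blue and the treated library in red. Dashed lines are the medians of all genes, 0.01 and 0.07. Squamous and fetal lists lie at the top in the treated library and just under mucosal defence, at 1.86, in the control, mucosal defence and the goblet list lie far apart, and the control median of the goblet list and both medians of the Paneth list rest on few cells.

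Few markers of mature cell types reached the level for a test, and several calls among those that did rested on a handful of cells. Krt20, a keratin of shed surface cells, had 176 and 28.8 CPM in the treated library (6.12-fold, 5.6 to 6.68), where 45.4% of thinned Clu-high cells held it. In the control 88.6% of its 70 UMIs lay in 5 cells. Of 15 enterocyte genes, 0 of 1 tested was called in the control, and 1 of 4 was higher and 2 lower in the treated library. Over all genes 10.4% were higher and 6.54% lower in the control, and 20.5% and 10.6% in the treated library. Vil1, villin of the brush border, had 74.1 and 88.2, and 138 and 112 CPM. In the control 4 of 6 tested goblet genes were higher and 2 lower, but 5 cells held 100% of the UMIs of the mucin gene Muc2, the trefoil gene Tff3 and the channel regulator gene Clca1. Without the highest cells of each gene the log2 ratio of Muc2 turned from 1.53 to −0.30 and that of Tff3 from 2.55 to −0.41, and Clca1 was at 0 in both groups. Of 4 goblet genes tested in treated cells, 1 was higher, which is close to the share over all genes. Of 7 Paneth genes, 2 of 4 tested were higher and 2 lower in the control, and 5 of 7 lower in the treated library. Without the highest cells of each gene the treated median went from −1.14 to −0.040, with Defa17 at 0.16, Defa22 at −0.040 and Ang4 at −0.24. The higher ones in the control were Mmp7, which activates defensins and is also a Wnt target of adenomas, at 640 and 219 CPM, and Itln1, at 216 and 85.5 CPM. By the Paneth list's UMIs over all UMIs, 64 of 186 control Clu-high cells (34.4%) were in the top 10% of the library. Of the control Clu-low cells 39 of 933 (4.18%) were. The treated library had 34 of 273 (12.5%) and 145 of 1365 (10.6%). Summed over the 7 genes, control Clu-high cells held 873 CPM, nearly all of it from Mmp7 and Itln1. Which members placed single cells in the top 10% was not tested. Defa24, a defensin with near-identical copies and for that reason uncertain, had 2.66 and 133 CPM in the control and 243 and 407 CPM in the treated library, and its log2 ratio turned from −5.20 and −0.74 to 0.30 and 0.18 without the highest cells. Lyz1, Paneth lysozyme, had 12.8 and 130, and 140 and 120 CPM, and 5 cells held over 70.7% of its Clu-high UMIs in each library. Pyy, a gut hormone, had 274 and 16.4 CPM in the treated library, 54.4% of it in 5 cells, and 18.3% of thinned Clu-high and 7.77% of Clu-low cells held it. Chga, the granin of enteroendocrine cells, had 1 and 3 UMIs in Clu-high cells. Of 17 enteroendocrine genes, 0 of 2 tested were called in the control, and in the treated library Pyy was higher and Sct lower. Of 11 tuft genes, 0 of 1 and 0 of 0 were called, and Dclk1 had 46 and 1 UMIs in Clu-high cells.

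Of the genes tested in both libraries, 18 were higher in control and lower in treated Clu-high cells, and 11 the reverse. Beside Pigr, Reg3g, Reg3b, Lypd8, Bnip3 and Itln1, the 18 held Wnt6, a Wnt ligand, at 299.7 and 166.5 CPM in the control and 23 and 46.3 CPM in the treated library, and the hypoxia-induced carbonic anhydrase gene Car9 at 23.6 and 8.22, and 20.1 and 64.4 CPM. Wnt6 was picked after its values were seen. The reverse group held Cryab, a small heat shock protein, at 8.92 and 28.6, and 89.1 and 31.0 CPM. It also held Igfbp7, a secreted growth factor binding protein, and Col4a1, a collagen of basement membranes. Their control log2 ratios, −2.35 and −1.16, turned to 0.62 and 0.18 without cells that carried markers of other cell types.

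Clu-high cells were not uniform. A cell was counted as high for a list when its UMIs of that list, over all its UMIs, were in the top 10% of the library. In the treated library 162 of 273 Clu-high cells (59.3%, 53.3 to 65.2) were high for the fetal list, against 11 of 1365 Clu-low cells (0.806%, 0.403 to 1.44). In the control the counts were 61 of 186 (32.8%, 26.1 to 40.05) and 38 of 933 (4.07%, 2.9 to 5.55). For TGF-β targets they were 136 of 273 and 47 of 186, for the squamous list 116 and 42, for YAP targets 91 and 46, and for MHC class I 107 and 43. For mucosal defence the order of the cultures was the other way, with 17 of 273 in the treated library (6.23%, 3.67 to 9.78) and 72 of 186 in the control (38.7%, 31.7 to 46.1). For G2 and M phase 6 of 273 Clu-high cells were high, and 0 of 186 in the control, against 191 of 1365 and 120 of 933 Clu-low cells. Of the 162 fetal-high cells of the treated library, 92 were also high for the squamous list, which shares Sprr1a and Krt7 with it, and 69 for YAP targets. Of the 61 in the control, 29, 31 and 23 were also high for the squamous, YAP and mucosal defence lists. High for none of the fetal, mucosal defence, squamous and YAP lists were 59 of 186 control and 63 of 273 treated Clu-high cells.

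**Figure D5:**
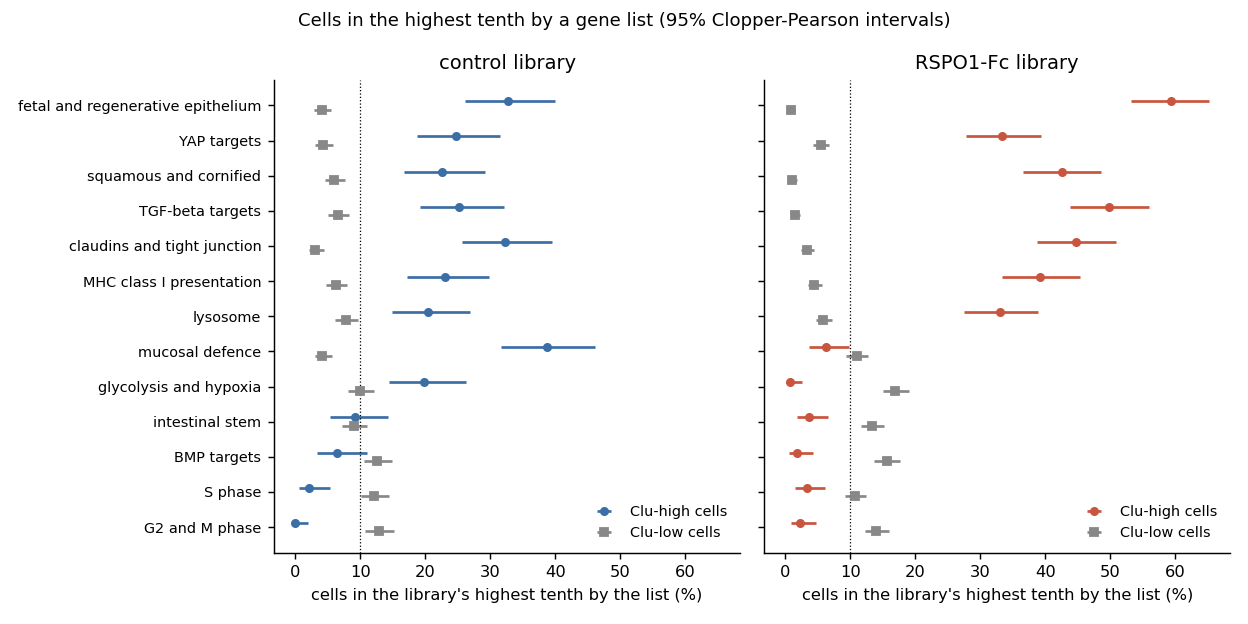
Share of Clu-high cells (coloured circles) and Clu-low cells (grey squares) in the top 10% of their library by the UMIs of a gene list, with exact binomial intervals. The dotted line marks 10%, the share of all cells. Clu-high cells lie above it for the fetal, YAP, squamous, TGF-β, tight junction, MHC class I and lysosome lists in both libraries, and the libraries part for mucosal defence and glycolysis.

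Markers of other cell types were checked in the Clu-high cells. Summed over 10 macrophage markers the level was 170 CPM in Clu-high and 210 CPM in Clu-low control cells, and 8.02 and 3.97 CPM in the treated library, where 7 of the 10 were at 0 UMIs in Clu-high cells. The 8 endothelial markers summed to 81.3 and 78.3, and 47.3 and 44.7 CPM, with 1 of 8 at 0 in Clu-high cells of each library. Of 2 tested in the control, Flt1 was higher and Cldn5 lower, beside 10.4% and 6.54% of all genes. The 1 tested in the treated library, Cdh5, was higher, beside 20.5%. At least 3 endothelial UMIs were present in 33.9% of control Clu-high and 25.7% of Clu-low cells, and in 12.8% and 12.9% of treated cells. The 8 fibroblast markers summed to 6.26 and 58.2, and 1.39 and 1.06 CPM, with 2 and 4 at 0. The summed level of the 8 pericyte or smooth muscle markers was higher in Clu-high cells. Their part in the results, apart from that of other cell types, was not tested. The sum was 130 and 42.1 CPM in the control and 27.9 and 8.63 CPM in the treated library, with 0 and 4 markers at 0. In the control 3 of the 8 were tested, and 3 were higher, beside 10.4% of all genes. These were Rgs5 at 65.4 and 9.24, Acta2 at 30.2 and 15.0 and Tagln at 30.2 and 10.6 CPM. In the treated library 1 was tested, Acta2, and it was higher, beside 20.5% of all genes. All of these were tested through the Clu-high group alone, so the calls of Rgs5 and Tagln were close to fixed. At least 3 UMIs of this list were present in 20.97% of control Clu-high and 3.001% of Clu-low cells, and in 4.03% and 1.25% of treated cells. The T cell, B cell and red cell lists summed to at most 8.45 CPM in Clu-high cells of either library. Without the 1056 control and 583 treated cells that had at least 3 UMIs of these markers, 294 genes were higher in both and 169 lower in both, of which 240 and 146 were among the 403 and 223.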

How the data were processed

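Single organoid cells were measured in 2 libraries, 1 per culture, and grouped by the treatment label. Per the labels' protocols, libraries were made with the 10x Reagent Kit v2. Cell Ranger 2.1.1, Seurat 3.1.1 and the build mm10 are listed in the submitters' processing notes, whereas the control matrix carries software version 3.1.0, per the file headers. What the authors deposited are matrices of whole UMI counts, a value for a gene in a barcode, before any cell filter. Library totals were 91675581 UMIs (control) and 89437327 (treated with RSPO1-Fc), of which 72.8% and 78.6% lay in cells that passed the rule. Tables were joined on 27514 shared gene identifiers. Of per-sample columns, 0 were left unused.

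UMIs were summed over the cells of a group and scaled to CPM over shared genes (Python 3.11.15, numpy 2.4.6, scipy 1.17.1). Log2 ratios had 1 CPM added, which understates low genes, while folds had none. With 1 library per culture no p-value is given. Intervals are exact Poisson for levels, conditional Clopper-Pearson for folds and Clopper-Pearson for shares, and cover counting error only. Called means at least 20 CPM in either group and 1.5-fold, without Clu and Epcam, which the rule uses. Scrublet, as built into scanpy 1.11.5, gave doublet scores, and the highest, 0.8% per 1000 barcodes, were removed in an alternative. The other alternatives changed the CPM and fold limits, the scaling, the cells chosen or compared, the depth, the added CPM, free RNA, mitochondrial share and cells with other types' markers. List medians used members at 10 CPM or more over all cells, at least 4. The procedure was tested on simulated data.

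Members, the 31 gene lists, the 7 lists of other cell types and the rules were chosen with earlier results of these data known. Named genes were the 12 highest and 12 lowest called in both libraries by the smaller log2 ratio, the 5 highest and 5 lowest per library, up to 4 per list by mean absolute log2 ratio and a fixed set of markers. Other list members are named where a count rests on them or to show a range, after their values were seen. Promoter motifs, the free RNA bound (genes at 200 CPM or more in droplets, lowest 25% of cells) and the removal of the cells highest in a gene were added after seeing the data. The bound replaced a first estimate that would have taken Clu of treated Clu-low cells below 0. A combined object was not used here.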

Additional observations from a re-analysis of the deposited data

Results flagged for a closer look

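The following log2 ratios of Clu-high over Clu-low cells, control first and treated library second, had opposite signs, and the difference between the cultures was not tested. The median of the mucosal defence list was 1.86 and −1.49, with Lypd8 at 2.86 and −1.12 and Reg3b at 3.098 and −0.60. Bnip3 was at 0.76 and −2.21, and Car9 at 1.42 and −1.64. In the other direction Cryab was at −1.58 and 1.49, Col4a1 at −1.16 and 1.34, Igfbp7 at −2.35 and 4.07, and Spink4 at −3.44 and 1.00. In the control, 5 of 186 Clu-high cells held 84.8% of the Reg3b UMIs of that group, and 62.2% of those of Spink4.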

How the results depend on the processing

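Counts of called genes were recomputed under 13 alternatives, in the order higher and lower in the control, higher and lower in the treated library, higher in both, lower in both, higher in control only with the reverse in RSPO1-Fc, and its opposite. At 5 CPM or more they were 1213, 1016, 2025, 1217, 689, 502, 36 and 30. At 2-fold they were 283, 185, 575, 269, 134, 93, 5 and 4. Against the middle 40% of cells they were 253, 202, 656, 356, 110, 102, 5 and 7. The last count was 7 without cells with other types' markers, 19 after thinning to 5000 UMIs and 5 without the cells highest in each gene. The other 77 counts stayed within 1.5 times the main one.

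Of 612 list medians 467 moved by less than counting error and 8 were marked as reversed, and of 3696 ratios of single genes 2331 and 22. Other values crossed 0 without this mark. In the control Ankrd1 went from 1.49 to −1.05 against the middle cells. Without cells with other types' markers, control Ang4 went from −3.01 to 2.96. The control median of the unfolded protein and integrated stress response list then went from −0.06 to 0.12. The values marked as reversed follow. In the control the goblet median was −2.79 with the top 5% of cells, −3.93 when ranked within 5 classes of total UMIs, −3.00 at up to 10% mitochondrial UMIs and −0.30 without the cells highest in each gene. Muc2 took the same values, and Tff3 was −3.04, −4.31, −3.63 and −0.41. At up to 10% mitochondrial UMIs Clca1 was −0.047 and Saa1 −0.52. The MHC class II median was 0.025 with the top 5% and 0.40 against the middle cells. Without cells with other types' markers the Paneth median was 0.73, Col4a1 0.18, Defa21 0.11, Defa24 0.70, Igfbp7 0.62 and Spink4 1.40. Without the cells highest in each gene the Paneth median was 0.15, Defa24 0.30, Igfbp7 0.11 and Spink4 0.60. In the treated library Spink4 was −0.95 with the top 5% of cells, Defa24 0.056 against the middle cells, and Defa17 and Defa24 0.16 and 0.18 without the highest cells. The cause was not tested. Depth limits genes under 20 CPM, and 1 library per culture leaves every statement about the cultures without a replicate.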
